A study of Mus musculus with 6 samples.

Results

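The primitive streak and early mesoderm genes T, Mixl1, Wnt3, Wnt8a, Fgf8, Gsc, Mesp1, Evx1, Lhx1 and Tbx6 were examined in mouse embryonic stem (ES) cells that carried an expression vector for FLAG-tagged CTCFL, the germ cell paralog of the insulator protein CTCF. These 10 genes were chosen by name, and a gene was measured where a probe set of the array annotation carried its symbol. That was so for 9 of the 10, each with 1 probe set, among 19937 genes in all. The expression of T, the brachyury gene, was not analysed here. One kind of culture held the FLAG-CTCFL vector and the other a control vector, with 3 arrays each and 6 in all. Both kinds of culture were male 46C-derived ES cells of 129P2/OlaHsd background with a GFP reporter knocked into Sox1, kept in medium with 10% serum under constant selection with 1 µg/ml puromycin. The labels call the cells cloned from 46C and stably transfected, without saying how many independent clones stand behind each group, so p-values measure the spread between these arrays. Expression was read from total RNA with Affymetrix Mouse Gene 1.0 ST arrays, which use 1 colour, and every level below is a log2 signal.

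The primitive streak is the site at the posterior edge of the epiblast where cells lose their epithelial character at gastrulation and become mesoderm and definitive endoderm. Wnt ligands and Nodal start it, T-box factors such as T and Eomes and homeobox factors such as Mixl1 act within it, and Fgf8 is needed for cells to move away from it. ES cells in serum are pluripotent, but a minority of cells in such cultures can switch on streak genes.

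The FLAG-CTCFL arrays differed from the control arrays over a large part of the genome, which sets the background for every count below. Limma's test, with p-values adjusted by Benjamini-Hochberg over all genes and a threshold of 0.05, called 30.9% of the 19937 genes, 12.5% higher and 18.4% lower in FLAG-CTCFL cells. The arrays of the groups did not overlap for 41.3% of genes, with the FLAG-CTCFL arrays above for 18.3% and below for 23.0%. Ctcfl itself had log2 signals of 11.33, 11.22 and 11.24 in FLAG-CTCFL cells, against 7.70, 7.85 and 7.89 in control cells, which is the direction the labels give. The ES cell markers Pou5f1, Sox2 and Nanog averaged 12.54, 12.46 and 12.72 in FLAG-CTCFL cells, against 12.65, 12.67 and 13.35 in control cells. Both groups thus carried the defining markers of their labelled cell type. Sox2 (-0.21) and Nanog (-0.62) were lower in FLAG-CTCFL cells (limma adjusted p = 0.00427 and 5.40e-07), and Pou5f1 (-0.11) did not pass. Pearson's r over genes was at least 0.9969 between FLAG-CTCFL arrays, at least 0.9983 between control arrays and at most 0.9849 between arrays of different groups. As a guide to signal without transcript, the 95th percentile of the mean log2 signals of 1194 olfactory and vomeronasal receptor genes was 7.63, and 8 of the 9 streak genes lay above that level in both groups.

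Of the streak genes, Wnt8a and Mixl1 were higher in FLAG-CTCFL cells, and none was lower. Wnt8a, a secreted Wnt ligand of the early streak, rose by 0.52 ± 0.05 on the log2 scale (1.43-fold; SE over 3 arrays per group; limma adjusted p = 1.89e-06). Mixl1, a paired-type homeobox factor of the streak that takes part in mesoderm and endoderm formation, rose by 0.31 ± 0.04 (SE; 1.24-fold; limma adjusted p = 9.69e-05). For the other 7 the arrays of the groups overlapped, and no test was passed. A count of 2 of 9 is no more than the 30.9% called among all genes. The median log2 fold change of the 9 genes was 0.020, and that of all genes 0.0037. Dim genes were called less often: of the 9 genes, 8 lay between the 25th and the 50th percentile of mean signal, where 21.1% of genes were called, and Fgf8 lay between the 50th and the 75th, where 50.1% were called.

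**Figure D1:**
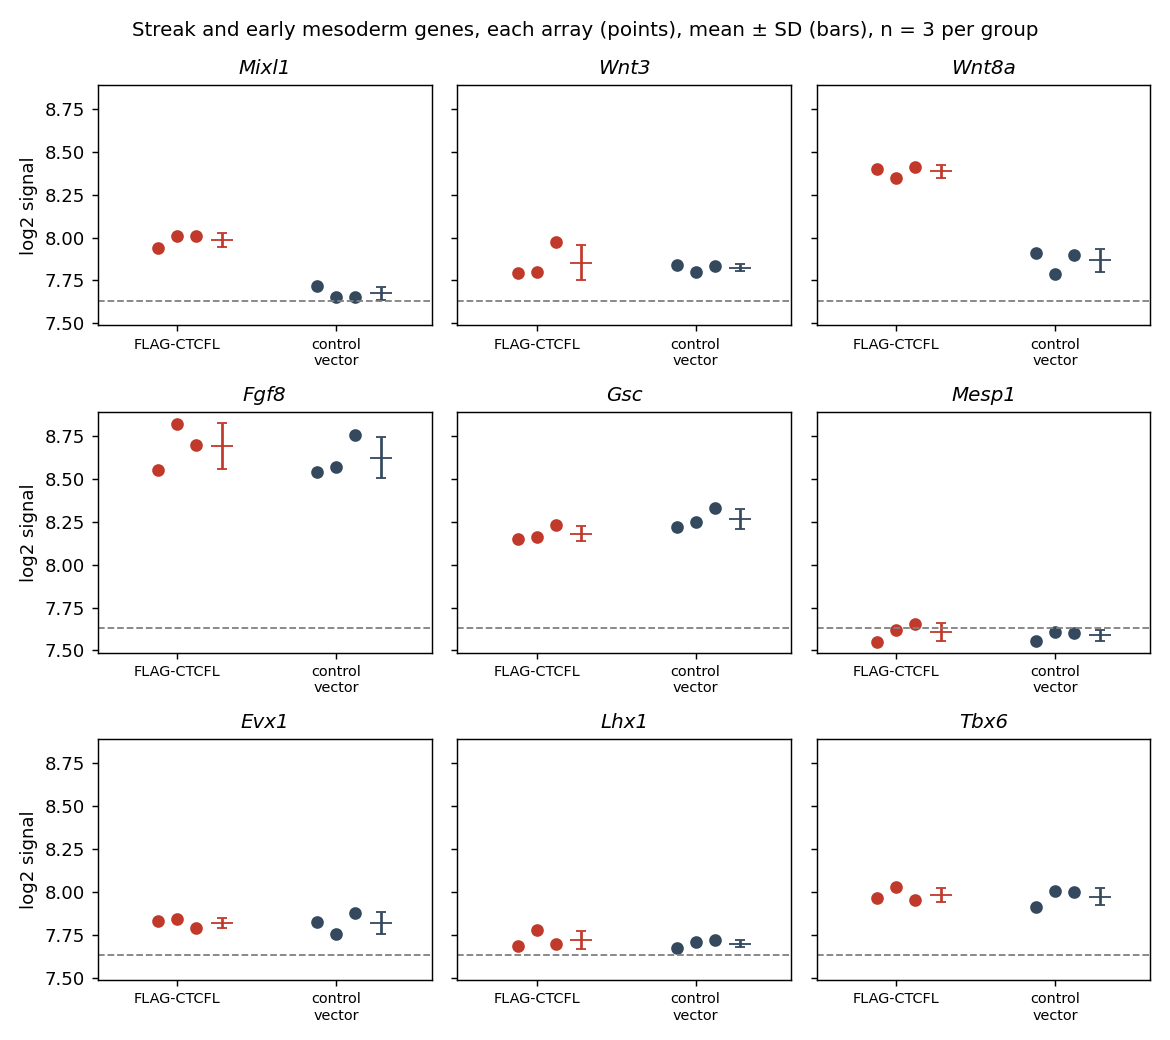
Log2 signal (vertical axis) of the 9 measured genes in the 3 FLAG-CTCFL arrays (red, left) and the 3 control vector arrays (blue, right) of each panel, with bars for the mean ± SD and a dashed line at 7.63, the 95th percentile of receptor genes. The groups separate for Wnt8a and Mixl1 and overlap in the other 7 panels.

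The ligands of the set are Wnt3, Wnt8a and Fgf8. Wnt8a had log2 signals of 8.40, 8.35 and 8.41 in FLAG-CTCFL cells, against 7.91, 7.79 and 7.90 in control cells. All 3 FLAG-CTCFL arrays were above all 3 control arrays, and the gap between the nearest arrays, 0.43, exceeded the SD of either group, 0.035 in FLAG-CTCFL cells and 0.066 in control cells. Such a separation in this direction was seen for 18.3% of all genes. Wnt3, the Wnt ligand without which no streak forms in the mouse, had 7.79, 7.80 and 7.97 in FLAG-CTCFL cells, against 7.84, 7.80 and 7.84 in control cells. Here 1 FLAG-CTCFL array, replicate 3, lay above the control arrays and the other 2 lay at or below them. The difference was 0.03 ± 0.05 (SE), with a 95% confidence interval of -0.09 to 0.14 (limma adjusted p = 0.764). When limma weighted the arrays by their estimated quality, FLAG-CTCFL replicate 3 received a weight of 5.77, against 0.414 and 0.321 for the other FLAG-CTCFL arrays, and the Wnt3 difference was then 0.13 (adjusted p = 0.0135). That value therefore rests largely on 1 array, and without it the difference was -0.03.

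Fgf8, a fibroblast growth factor made in the streak, had log2 signals of 8.55, 8.82 and 8.70 in FLAG-CTCFL cells, against 8.54, 8.57 and 8.76 in control cells. Both groups spanned more than 0.2, and they overlapped over most of that range. The difference of 0.07 ± 0.07 (SE; 95% confidence interval -0.09 to 0.22; limma adjusted p = 0.557) was within the spread of the replicates, whose SD was 0.135 in FLAG-CTCFL cells and 0.119 in control cells, more than for any other gene of the set in either group.

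The homeobox genes of the set are Mixl1, Gsc, Evx1 and Lhx1. Mixl1 had log2 signals of 7.94, 8.01 and 8.01 in FLAG-CTCFL cells, against 7.72, 7.65 and 7.65 in control cells. The groups did not overlap, with 0.22 between the nearest arrays and SDs of 0.039 in FLAG-CTCFL cells and 0.036 in control cells. The control mean of Mixl1, 7.67, lay just above the level of 7.63, and 49 of the 1194 receptor genes had a higher control mean, so a fold change read there may understate the true ratio. Gsc, the homeobox factor goosecoid of the anterior streak and organizer, had 8.15, 8.16 and 8.23 in FLAG-CTCFL cells, against 8.22, 8.25 and 8.33 in control cells. Only the highest FLAG-CTCFL array reached into the control range, and the difference of -0.09 ± 0.05 (SE; 95% confidence interval -0.19 to 0.014; limma adjusted p = 0.202) did not pass the test. It was the only negative difference of the set.

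Evx1, an even-skipped homeobox factor of the posterior streak, had 7.83, 7.84 and 7.79 in FLAG-CTCFL cells, against 7.82, 7.75 and 7.88 in control cells. The control arrays enclosed all 3 FLAG-CTCFL arrays. Lhx1, a LIM homeobox factor of the anterior streak and the early mesoderm, had 7.68, 7.78 and 7.69 in FLAG-CTCFL cells, against 7.67, 7.70 and 7.72 in control cells, and again the groups overlapped. The 95% confidence intervals of the differences were -0.10 to 0.10 for Evx1 and -0.08 to 0.12 for Lhx1 (limma adjusted p = 0.982 and 0.813). They leave room for a change of about 0.1 either way in log2 signal. With signals so near the level of 7.63, they do not bound the change in transcript.

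Tbx6, a T-box factor of the paraxial mesoderm, had log2 signals of 7.97, 8.03 and 7.96 in FLAG-CTCFL cells, against 7.91, 8.01 and 7.999 in control cells. The groups overlapped, and the 95% confidence interval of the difference was -0.09 to 0.11 (limma adjusted p = 0.910). Mesp1, a basic helix-loop-helix factor of the first cells to leave the streak, was the gene of the set whose signal could not be told from that of silent genes. It had 7.55, 7.62 and 7.65 in FLAG-CTCFL cells, against 7.55, 7.61 and 7.60 in control cells, and 1 of 3 FLAG-CTCFL arrays and 0 of 3 control arrays were above 7.63. Its signal gives no usable fold change (limma adjusted p = 0.813).

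The differences of Wnt8a and Mixl1 passed under each of the 15 alternatives in which they were tested without a minimum fold, with Wnt8a between 0.48 and 0.55 and Mixl1 between 0.28 and 0.33. Neither reached 1.5-fold. For Wnt3, Mesp1, Evx1, Lhx1 and Tbx6 the sign of the small difference turned after quantile normalization, so no direction can be given for these 5 genes.

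**Figure D2:**
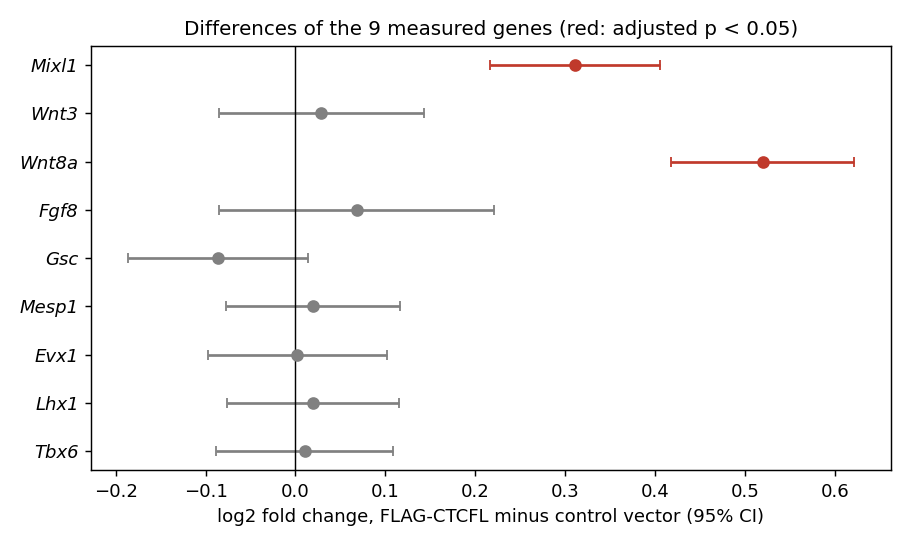
Log2 fold change, FLAG-CTCFL minus control vector, with its 95% confidence interval (horizontal axis) for the 9 measured genes, with red for an adjusted p under 0.05. The intervals of Wnt8a and Mixl1 lie above 0, and those of the other 7 genes include 0.

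Promoter sequence was available for 7 of the 10 genes, T included. There was none for Wnt8a, Mixl1 and Fgf8, so neither Wnt8a nor Mixl1, which passed the test, was searched. The windows came from RefSeq on GRCm38.p6 and run from 250 bases before to 50 bases after a gene's start. They were searched on both strands for the T-box motif TCACACCT, for the LEF/TCF motif CTTTGAT, through which Wnt signals reach their target genes, and for AGGGGGC, a run of 7 letters from the core of the sequence that CTCF binds. The zinc fingers of CTCFL resemble those of CTCF. The Mesp1 window alone among the 7 held the T-box motif, which 1.28% of all 32851 windows hold, and the LEF/TCF motif, which 3.73% hold. AGGGGGC stood in the windows of Gsc, Lhx1, Tbx6 and T, 4 of 7, and in 10.6% of all windows. A longer, gapped form of the CTCF core stood in the Tbx6 window alone among the 7 and in 8.61% of all windows. A match says only that these letters are present. The gapped match of Tbx6 begins 156 bases before the gene's start and lies outside the stretch printed. The following stretches show the matches to the other motifs in capitals, first for the measured streak genes whose windows held a match, then for Sp5, a direct Wnt target gene whose LEF/TCF match overlaps AGGGGGC on the opposite strand.
Mesp1 (chr7:79793561-79793660, minus strand): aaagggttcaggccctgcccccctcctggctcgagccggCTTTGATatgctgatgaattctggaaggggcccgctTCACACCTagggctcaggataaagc
Gsc (chr12:104473247-104473326, minus strand): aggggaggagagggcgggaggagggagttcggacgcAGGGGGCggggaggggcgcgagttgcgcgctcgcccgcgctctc
Lhx1 (chr11:84525515-84525594, minus strand): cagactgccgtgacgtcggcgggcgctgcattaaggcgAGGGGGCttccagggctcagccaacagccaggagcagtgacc
Tbx6 (chr7:126781403-126781482, plus strand): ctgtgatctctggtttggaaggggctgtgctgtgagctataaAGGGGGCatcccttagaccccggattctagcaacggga
Sp5 (chr2:70474783-70474862, plus strand): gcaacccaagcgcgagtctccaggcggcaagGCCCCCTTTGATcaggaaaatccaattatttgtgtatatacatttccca
In Mesp1 the LEF/TCF letters begin 31 bases before the gene's start and the T-box letters 5 bases after its first base. AGGGGGC begins 54 bases before the start of Gsc, 22 before that of Lhx1 and 38 before that of Tbx6. None of these 3 genes passed the test. Of the genes shown Sp5 did, with log2 signals of 7.96, 8.07 and 7.99 in FLAG-CTCFL cells, against 7.79, 7.80 and 7.89 in control cells (a difference of 0.18 ± 0.05, SE; limma adjusted p = 0.0108). Sp5 was chosen for display after its values were seen, so its passing says nothing about a link between motif and expression.

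The members were also set beside their neighbours, the 5 measured genes on either side along the chromosome. Mixl1 lies on chromosome 1 near Lefty2, which codes for an antagonist of Nodal. The 10 neighbours of Mixl1 had a median log2 fold change of -0.07, with 4 of them lower and 0 higher. Lefty2 fell by 1.57 (limma adjusted p = 5.85e-09), so a large fall and the rise of Mixl1 were measured within the same run of genes. Wnt8a lies on chromosome 18, where its neighbours had a median of -0.02. Among them Fam13b rose by 0.51 (limma adjusted p = 1.64e-05) and Reep5 fell by 0.29 (limma adjusted p = 0.000112). Around the other 7 genes the medians lay between -0.02 and 0.09. Mesp2, the paralog next to Mesp1, differed by -0.01 ± 0.07 (SE; limma adjusted p = 0.971).

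**Figure D3:**
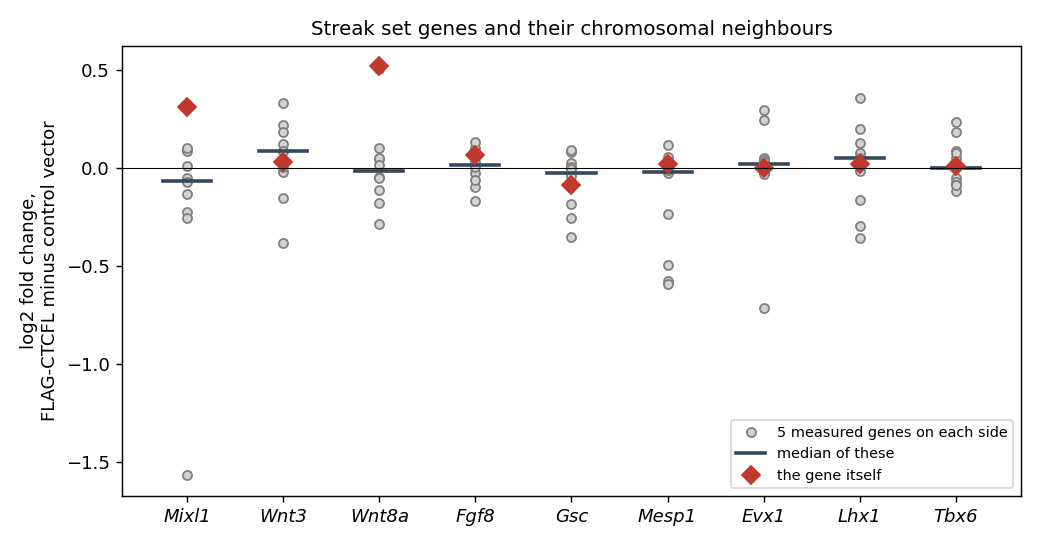
Log2 fold change, FLAG-CTCFL minus control vector (vertical axis), of each of the 9 genes (red diamond), of its 10 measured neighbours (grey circles) and their median (bar). Wnt8a and Mixl1 lie 0.52 and 0.31 above 0 while the medians of their neighbours are -0.02 and -0.07, and the low point beside Mixl1 is Lefty2 at -1.57.

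Other genes that act in the streak moved both ways. Of 29 further streak genes, all measured, 6 were higher and 6 lower in FLAG-CTCFL cells, and the median was 0.0058. Eomes, the T-box factor that specifies definitive endoderm and the first mesoderm, had log2 signals of 8.83, 8.94 and 9.09 in FLAG-CTCFL cells, against 8.35, 8.32 and 8.35 in control cells, a rise of 0.61 ± 0.06 (SE; limma adjusted p = 3.12e-06). The signal of the caudal homeobox gene Cdx2 rose by 0.30 (limma adjusted p = 0.00512), with means of 7.86 in FLAG-CTCFL cells and 7.56 in control cells. That control mean is under the level of 7.63, so the difference is one of signal and gives no ratio of transcript, here and for every gene below with a mean under that level. Eomes and Cdx2 are also trophoblast genes. Of 14 measured trophoblast markers, 6 were higher, Eomes and Cdx2 included, and 1 was lower. The summed linear signal of the 14 was 5813 to 6530 in FLAG-CTCFL cells and 4465 to 4509 in control cells. Krt8 (1.15) and Krt18 (1.04) rose most and were the brightest of the list in FLAG-CTCFL cells, with means of 10.72 and 10.19. They therefore add most to the rise of the sum, which does not stand for the list as a whole. The median log2 fold change of the list was 0.09. Tfap2c fell by 0.73. The 7 that did not pass were Elf5 (0.009), Hand1 (0.11), Ascl2 (0.04), Tpbpa (0.03), Plac1 (0.07), Gata2 (-0.08) and Tfap2a (0.07). The part of trophoblast cells in the rise of Eomes and Cdx2 was not tested. With bulk RNA, more cells of a kind and more RNA per cell cannot be told apart.

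Bmp4 and Nodal, signals that act before the streak forms, were lower. Bmp4, which acts upstream of Wnt3 in the embryo, had 10.01, 9.66 and 9.67 in FLAG-CTCFL cells, against 11.11, 10.98 and 11.01 in control cells, a difference of -1.26 ± 0.08 (SE; limma adjusted p = 7.51e-08). The 10 neighbours of Bmp4 had a median of -0.54, and 8 of them were lower, so the fall was shared by its stretch of chromosome 14. Nodal (-0.29) and its co-receptor gene Tdgf1 (-0.37) fell less (limma adjusted p = 0.000165 and 1.69e-05). The neighbours of these 2 genes had medians of 0.04 and -0.03. Tbx3, a T-box factor that ES cells express (-0.66), and Fgf17, an Fgf8-related ligand (-0.63), fell as well (limma adjusted p = 1.19e-06 and 2.36e-06). Fgf17 lies on chromosome 14 too and among falling genes, with a median of -0.21 over its 10 neighbours, of which 6 were lower. The Wnt ligand genes Wnt3a (0.05), Wnt5a (0.07) and Wnt5b (0.10) did not pass, nor did Mesp2 and Msgn1 or the organizer genes Chrd, Nog and Cer1. The count of lower genes stayed at 6 without any single array, whereas the count of higher genes was 3 without control replicate 2 and 2 without control replicate 1.

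Of 25 genes of later mesoderm, 6 were higher and 0 lower, with a median of 0.05. Pdgfra, a growth factor receptor of paraxial mesoderm and primitive endoderm, had 8.07, 8.27 and 8.18 in FLAG-CTCFL cells, against 7.59, 7.63 and 7.70 in control cells, a rise of 0.54 ± 0.05 (SE; limma adjusted p = 6.02e-06). Tcf15 rose by 0.38, and the genes of the blood factors Gata1 and Lmo2 rose by 0.18 and 0.17. Kdr, a receptor gene of blood and vessel precursors, rose by 0.15, with a control mean of 7.56, under the level of 7.63. The heart factor gene Tbx20 also passed the test, but its means were close to or under that level, 7.65 in FLAG-CTCFL cells and 7.45 in control cells, and no fold change is read from them. Of other heart and blood factors in the list, Nkx2-5, Hand1, Hand2, Isl1, Gata4, Tbx5, Mef2c, Etv2 and Tal1 did not pass. Their differences lay between -0.05 and 0.11. Among markers of endoderm 5 of 15 were higher and 1 lower, among those of neural ectoderm 3 of 13 and 2, and among those of feeder fibroblasts 2 of 14 and 1. The medians of these 3 lists were 0.03, 0.02 and 0.08. The largest changes were those of Lrp2 (0.86) in endoderm, Nes (0.68) in neural ectoderm, and Thy1 (-0.48) and Tagln (0.48) in feeder markers. Without FLAG-CTCFL replicate 3, control replicate 1 or control replicate 2, each left out alone, 3 endoderm markers and 1 feeder marker were higher. Of 14 ES cell markers 8 were lower and 1 was higher (median -0.28), with the largest falls in Tcl1 (-1.17) and Fgf4 (-0.94).

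Wnt3 and Wnt8a act through Frizzled and LRP receptors. Of 30 measured genes for Wnt receptors, transducers and inhibitors, 12 were lower in FLAG-CTCFL cells and 2 were higher (median -0.06). The inhibitor Sfrp1, which binds Wnt proteins outside the cell, fell by 2.41 ± 0.05 (SE; limma adjusted p = 7.06e-12), and the related Sfrp5 fell too (-0.61). Both Wnt co-receptor genes were lower: Lrp5 averaged 9.41 ± 0.03 in FLAG-CTCFL cells and 9.89 ± 0.04 in control cells, and Lrp6 10.00 ± 0.06 in FLAG-CTCFL cells and 10.45 ± 0.04 in control cells (SD, n = 3 each). Porcn, the acyltransferase that Wnt ligands need for secretion (-0.66), and the receptor gene Fzd3 (-0.54) fell as well. The neighbours of Fzd3 and Lrp6 had medians of -0.41 and -0.29, and those of Lrp5, Porcn and Sfrp1 of -0.08, 0.01 and 0.0050. Fzd3 lies on chromosome 14, as Bmp4 and Fgf17 do, and 8 of its 10 neighbours were lower. Such a fall was not seen all along chromosome 14. Spry2, a gene of the FGF list below, lies there too, and its 10 neighbours had a median of 0.04, with 2 higher and 1 lower. The 2 higher genes of the list were the receptor gene Fzd2 (0.36) and the gene of the nuclear factor Lef1 (0.40). In this list, genes whose products pass the Wnt signal on and genes whose products restrain it were both among those that fell.

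Of 14 measured Wnt target genes of ES cells, which share Lef1, Notum and others with the lists above, 7 were higher and 2 lower, with a median of 0.16. Lef1 had 8.81, 8.86 and 8.82 in FLAG-CTCFL cells, against 8.40, 8.44 and 8.45 in control cells. Axin2, a feedback inhibitor widely used as a Wnt readout, had 8.97, 8.94 and 8.82 in FLAG-CTCFL cells, against 8.60, 8.62 and 8.69 in control cells, a rise of 0.28 ± 0.05 (SE; limma adjusted p = 0.000805). Nkd2 (0.23), Cdx1 (0.20) and Sp5 (0.18) rose too, and Ccnd1 (-0.43) and Notum (-0.24) fell. The other 2 higher genes were dim: Cdx2, described above, had a control mean under 7.63, and Lgr5 averaged 7.55 in FLAG-CTCFL cells and 7.38 in control cells, both under that level, so that it gives no usable fold change although it passed the test. Myc (0.14), Nkd1 (0.12), Dkk1 (0.07), Rnf43 (0.04) and Znrf3 (0.04) did not pass. Without control replicate 1 the count of higher genes was 4.

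For Fgf8, 16 genes of FGF ligands, receptors and their early targets were measured, of which 6 were higher and 6 lower, with a median of -0.09. Fgf4, the main FGF of ES cells, fell by 0.94 (limma adjusted p = 5.36e-09), and Fgf10 (-0.43) and Fgf18 (-0.31) fell too. Etv4 rose by 0.58 and Dusp6 by 0.49, both known targets of FGF signalling, and Spry4 (0.24) and Spry2 (0.14) rose less. Etv5 of the same list did not rise (-0.11, limma adjusted p = 0.107), and its FLAG-CTCFL arrays all lay below its control arrays. The FLAG-CTCFL mean of Fgf10, 7.51, was under the level of 7.63.

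**Figure D4:**
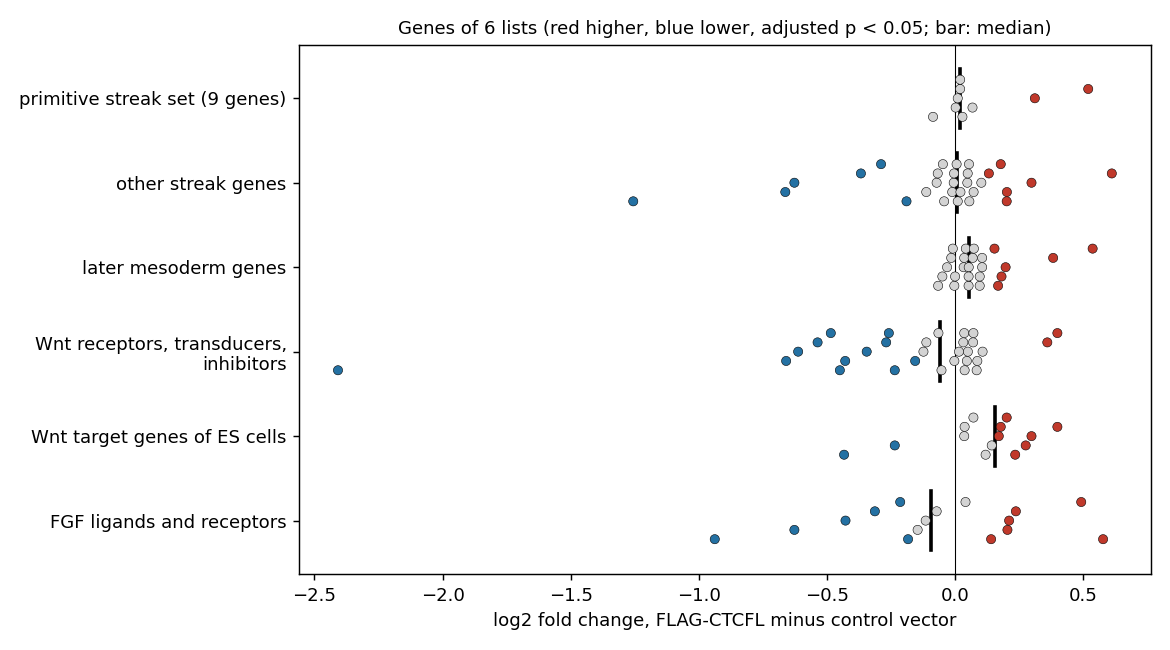
Log2 fold change, FLAG-CTCFL minus control vector (horizontal axis), of each measured gene of 6 lists (rows), with red for higher and blue for lower genes at an adjusted p under 0.05, grey for the rest and a bar at each list's median. Medians run from -0.09 for FGF genes to 0.16 for Wnt target genes, and the lowest point is Sfrp1 at -2.41.

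The genes whose signal over the 6 arrays was most like that of Wnt8a were Amotl2 and Tor1b (Pearson's r of 0.9997 and 0.9992), and for Mixl1 they were B930095G15Rik and Mir134 (0.998 and 0.9978). With groups of 3 that do not overlap, r mostly reads the group difference: 874 genes had an r over 0.95 with Wnt8a and 686 with Mixl1.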

How the data were processed

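The deposited table holds a log2 signal for each probe set on each array. Its values run between 5.73 and 14.56, from which the log2 scale was inferred. Per the labels' protocols, 200 ng of total RNA per array was labelled with the WT Terminal Labeling Kit. The authors' background correction, summarisation and normalization are stated neither in the labels nor in the file. Of 34760 probe sets, 21640 had 1 gene symbol in the platform annotation, 1321 several and 11799 none. Symbols were updated by Entrez ID through RefSeq's GRCm38.p6 table (21553 matched), and the brightest probe set of each gene was kept. A linear model with the group as its single term was fitted to 19937 genes (limma 3.58.1 under R 4.3.3, lmFit and eBayes), and two-sided p-values were adjusted by Benjamini-Hochberg. Figures were drawn with matplotlib 3.10.9.

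The members and lists were chosen with earlier results of these data known. The text names all members, Ctcfl, Sfrp1, Eomes, Pou5f1, Sox2 and Nanog, and the 2 genes most like each changed member. By rule it names up to 6 changed genes per list by size. This rule was not kept for the lists of ES cell, endoderm, neural, trophoblast and feeder markers, where fewer changed genes are named. Nodal, Sp5, Cdx1, Lgr5, Fzd2, Lef1 (in the list of Wnt receptors), Lefty2, Fam13b, Reep5, the fallen or unpassed genes listed beside them, and the neighbours of genes outside the set were chosen after their values were seen. Some genes stand on more than 1 list. No pairing by replicate number was seen: deviations from the group means correlated at 0.13, -0.20 and -0.02 for numbers 1 to 3. Between arrays of unlike numbers the correlations ran from -0.35 (FLAG-CTCFL 1 with control 3) to 0.34 (FLAG-CTCFL 2 with control 3). Deviations within groups of 3 cannot settle whether arrays were paired. The procedure was run on simulated arrays with independent noise and far fewer changed genes than were called here. That run does not show how it behaves on data like these. Alternatives were quantile normalization, the replicate block, filters on dim genes, array medians subtracted, other choices of probe sets, a variance trend, array weights, other thresholds and each array left out. No batch was tested, since scan dates were not used here.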

Additional observations from a re-analysis of the deposited data

How the results depend on the processing

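Ctcfl rose in all 17 alternatives, by 3.40 to 3.49. With the replicate block, Mixl1 and Wnt8a kept 0.31 and 0.52 (limma adjusted p = 0.000287 and 1.99e-06), no call among the 9 streak genes changed, and over all genes 2398 were higher and 3581 lower, against 2496 and 3665 without it. Leaving out 1 array gave 2 higher and 0 lower streak genes each time, with 1905 to 2818 higher and 3045 to 3880 lower over all genes. Further streak genes were then 2 to 5 higher, later mesoderm genes 4 to 7, Wnt pathway genes 2 to 3, Wnt targets 4 to 8, FGF genes 4 to 6, endoderm markers 3 to 4 and feeder markers 1 to 3. Of the 7 differences that did not pass, those of Fgf8 and Gsc kept their sign throughout and the other 5 changed it. After quantile normalization they were -0.0014 for Wnt3, -0.0097 for Mesp1, -0.029 for Evx1, -0.011 for Lhx1 and -0.014 for Tbx6. After subtraction of array medians they were -0.0053 for Mesp1, -0.023 for Evx1, -0.0055 for Lhx1 and -0.015 for Tbx6, and with array weights -0.022 for Evx1, -0.0022 for Lhx1 and -0.017 for Tbx6. Without single arrays the lowest and highest values were -0.030 and 0.059 for Wnt3, -0.0032 and 0.048 for Mesp1, -0.030 and 0.033 for Evx1, -0.010 and 0.037 for Lhx1, and -0.020 and 0.027 for Tbx6. Array weights gave 4195 higher genes, with 5 of the Wnt pathway. Of the 9 streak genes, only Fgf8 was above the median signal, so 0 were higher there, with 2 further streak, 1 later mesoderm, 1 Wnt pathway and 3 Wnt target genes. With all probe sets tested, 3 further streak and 3 later mesoderm genes were higher, and after subtraction of array medians 3 later mesoderm genes were. At 1.5-fold or more, 157 genes were higher and 552 lower, 0 of them in the streak set. That threshold kept 1 higher and 3 lower of the further streak genes, 3 lower of the Wnt pathway, 2 lower of the FGF genes, and 0 of the later mesoderm genes and Wnt targets. The cause of these differences was not tested, apart from the smaller sets and stricter threshold themselves. Signal near that of silent genes limits what can be read for Mesp1, Lhx1 and Mixl1, and to a lesser extent for Evx1, Wnt3 and Wnt8a. Of the 1194 receptor genes, 26, 25 and 22 had a control mean above those of Evx1, Wnt3 and Wnt8a.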
